A study of Rattus norvegicus with 8 samples.

Results

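Neuronal firing is set by ion channels and by proteins that bind calcium. Sodium and calcium channels admit depolarising current, potassium channels and GABA-gated chloride channels restrain it, and calcium buffers limit how far and how long calcium signals reach. In the habenula, a small epithalamic structure that relays forebrain signals to midbrain monoamine and interpeduncular nuclei, such genes are studied because tonic and burst firing of its neurons changes in models of stress. The 6 genes described here are Scn7a, Kcnh8, Cacna1e, Cacna2d2, Gabrd and Pvalb, which were picked by name as sodium, potassium, calcium and GABA-gated channel subunits plus the buffer parvalbumin. Each was found as 1 probe set with that single gene symbol, so that they make up 6 of the 379 probe sets in the deposited expression table, of which 283 have 1 symbol.

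Habenula tissue came from male Sprague-Dawley rats. The stressed group was 4 rats held in plastic film envelopes for 2 hours daily through 14 days. The non-stress group was 4 rats that stayed in the home cage with no stressor. The labels name no genetic change or drug in either group and give no age. Total RNA was hybridised to an Affymetrix whole-transcript array after biotin labelling, with 1 array for each rat, and rats are called below by the numbers in the sample titles.

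The table is not the whole array. Its largest unadjusted p-value in the authors' deposited table is 0.0499 and its smallest difference is 0.26 on the log2 scale (1.20-fold), so its rows had been selected on the stress contrast of these 8 arrays, and 100% of them pass those limits. The stress comparison therefore chose the 6 genes too. Their differences are given as descriptions without a test, and a gene outside the table may either have missed the limits or not have been measured. In this list 44.6% of probe sets were higher and 55.4% lower in stressed rats, the median log2 signal of an array was 8.60 to 8.77, and the groups did not overlap in 83.4%. Of 20 markers of medial habenula neurons, 9 were matched in the table by symbol. Among them was the nicotinic subunit Chrna3 (12.61 ± 0.13 in non-stress and 12.26 ± 0.05 in stressed rats). The listed Tac2 has the symbol Tac3 in the rat, and Tac3 (-0.44) is in the table but was not matched. The absence of the other markers says nothing about them.

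Of the 6 genes, Scn7a, Gabrd and Pvalb were higher in the stressed rats and Kcnh8, Cacna1e and Cacna2d2 lower. The median absolute difference of the 6 was 0.46 on the log2 scale, against 0.33 over the 379 probe sets. In 5 of the 6 the groups were apart (83.3%), beside the 83.4% of the table, from which nothing is read because the same contrast chose both. Values below are log2 signals. Group values are means ± SD with n = 4 rats, and differences, always the stressed minus the non-stress mean, carry the standard error from limma. That error assumes equal variance in both groups. It also draws on the variances of the other probe sets, which were selected on this contrast, so it may misstate the precision for a gene.

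Scn7a encodes the atypical sodium channel known as Nax, which is not opened by voltage like its relatives and serves as a sensor of extracellular sodium in glia of the rodent circumventricular organs. Its signal was 8.46, 8.20, 8.88 and 8.81 in non-stress rats 1, 3, 4 and 5, and 9.11, 9.30, 9.25 and 9.25 in stressed rats 7, 8, 10 and 12. Every stressed rat was above every non-stress rat, with 0.23 between the nearest values, and non-stress rats 4 and 5 lay closer to the stressed group than rats 1 and 3. The means were 9.23 ± 0.08 and 8.59 ± 0.32, a difference of 0.64 ± 0.12 or 1.56-fold. Scn7a is on a list of 8 markers for Schwann cells and peripheral glia, and the table holds none of the other 7, none of 10 astrocyte markers and none of 8 markers of ependyma and the subcommissural organ. In tissue RNA of this kind, a change in the number of cells of a type and a change in the RNA of each cell cannot be told apart.

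Kcnh8 encodes a voltage-gated potassium channel of the Elk family, which opens near resting potential and damps firing. Non-stress rats 1, 3, 4 and 5 had signals of 9.13, 9.35, 8.85 and 8.89, and stressed rats 7, 8, 10 and 12 had 8.52, 8.56, 8.47 and 8.68. Rat 3 was the highest of all and the groups were 0.17 apart. The stressed mean was 8.56 ± 0.09 against 9.06 ± 0.23, a difference of -0.50 ± 0.10.

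Both calcium channel genes were lower. Cacna1e encodes the pore-forming subunit of R-type channels, which in mice are present on medial habenula terminals in the interpeduncular nucleus. Its signal was 10.95, 11.26, 10.78 and 10.80 in non-stress rats 1, 3, 4 and 5, and 10.56, 10.50, 10.56 and 10.57 in stressed rats 7, 8, 10 and 12. The stressed rats were nearly alike, the non-stress rats were spread with rat 3 on top, and 0.21 separated the groups. The difference was -0.40 ± 0.10 (10.55 ± 0.03 against 10.95 ± 0.22), and it was -0.16 when the arrays were quantile normalised over the table.

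Cacna2d2 encodes an alpha-2-delta subunit, an auxiliary protein that brings calcium channels to the cell surface and belongs to the family bound by gabapentin. The signals were 10.74, 10.87, 10.45 and 10.47 in non-stress rats 1, 3, 4 and 5, and 10.29, 10.18, 10.20 and 10.19 in stressed rats 7, 8, 10 and 12. Non-stress rats 1 and 3 again stood above rats 4 and 5, stressed rat 7 was the highest of its group, and the groups were 0.16 apart. The difference was -0.42 ± 0.10 (10.22 ± 0.05 against 10.63 ± 0.21).

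Gabrd encodes the delta subunit of GABA-A receptors, found in extrasynaptic receptors that carry tonic inhibition and respond to neurosteroids. Its values were 9.63, 9.53, 9.68 and 9.75 in non-stress rats 1, 3, 4 and 5, and 9.85, 9.94, 9.92 and 9.97 in stressed rats 7, 8, 10 and 12. The groups were separated by 0.10, with non-stress rat 3 the lowest. The difference of 0.27 ± 0.08 (9.92 ± 0.05 against 9.65 ± 0.09, or 1.21-fold) was the smallest of the 6, close to the 1.20-fold limit of the table.

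Pvalb encodes parvalbumin, a fast calcium buffer of the EF-hand family that marks many fast-spiking neurons and is also present in a subset of lateral habenula cells. It was at 8.58, 8.31, 8.40 and 8.29 in non-stress rats 1, 3, 4 and 5, and at 9.11, 9.18, 9.35 and 8.47 in stressed rats 7, 8, 10 and 12. This was the only gene of the 6 whose groups overlapped, because stressed rat 12 lay below non-stress rat 1. The difference was 0.63 ± 0.14 (9.03 ± 0.38 against 8.40 ± 0.13) and 0.82 without stressed rat 12. Of the 6, Pvalb lay nearest to the table's limit on p, with an unadjusted p of 0.0402 in the authors' deposited table. Pvalb was the only one of 12 markers of GABAergic neurons in the table. The defining markers Gad1, Gad2 and Slc32a1 are not in it.

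**Figure D1:**
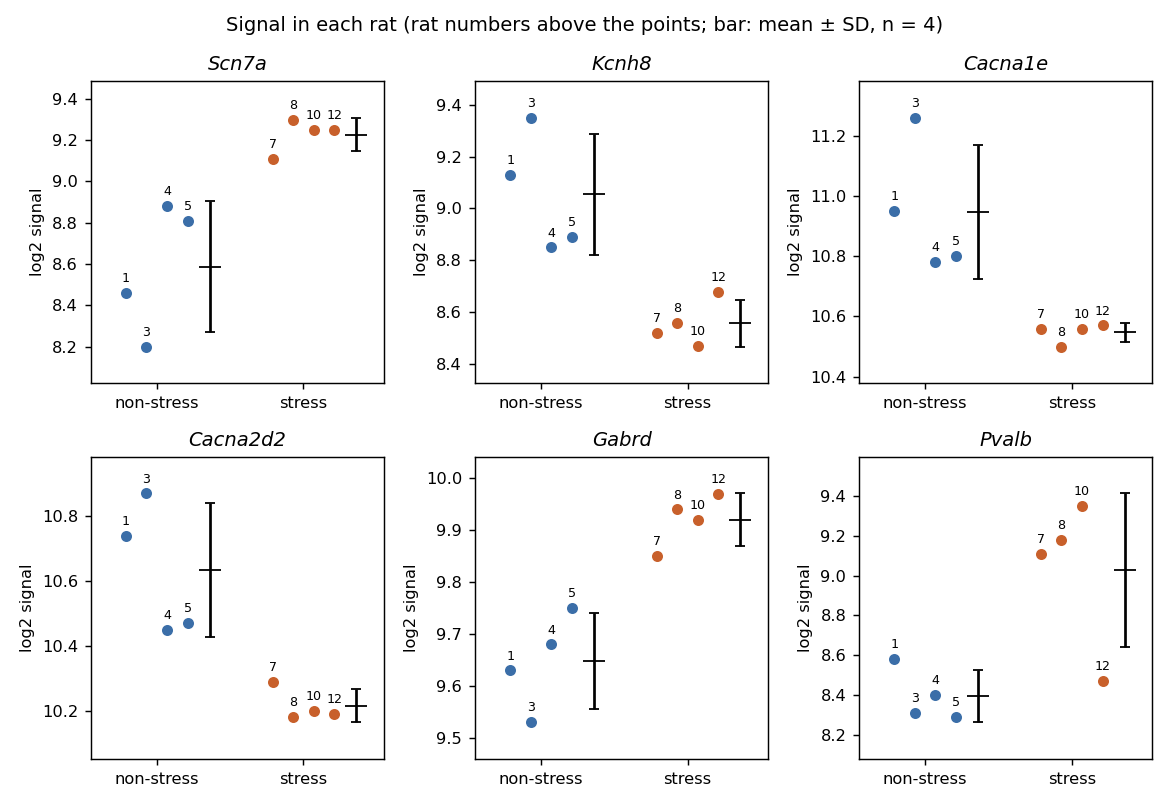
Log2 signal of the 6 genes in each rat (y axis, own range in each panel) by group (x axis), with rat numbers above the points and bars for the mean ± SD of 4 rats. The groups are apart in 5 panels, and in the Pvalb panel stressed rat 12, at 8.47, lies among the non-stress rats.

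The spread between rats was unequal. In 5 of the 6 genes the SD was larger among non-stress rats, by 7.74 times in Cacna1e, 4.26 in Cacna2d2, 3.90 in Scn7a, 2.66 in Kcnh8 and 1.68 in Gabrd. Pvalb was the exception, with a ratio of 0.344. Over the table, non-stress rats had the larger SD in 67.8% of probe sets, with a median ratio of 1.45. The unequal-variance p that chose the table reads these SDs, so the ratios are a description.

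The next question was whether the genes vary together among rats of the same group. The group mean was subtracted from each value, which removes the stress difference, and the remaining deviations of the 8 rats were correlated for all 15 pairs. Among the non-stress rats, the deviations of the 5 genes other than Pvalb lined up from rat to rat. In non-stress rat 3, Scn7a and Gabrd lay 0.39 and 0.12 below their group means (deviations -0.39 and -0.12), while Kcnh8, Cacna1e and Cacna2d2 lay 0.30, 0.31 and 0.24 above. Non-stress rats 4 and 5 were the mirror image, with Scn7a at 0.30 and 0.22, Gabrd at 0.03 and 0.10, Kcnh8 at -0.20 and -0.17, Cacna1e at -0.17 and -0.15, and Cacna2d2 at -0.18 and -0.17. Most of the variation in these 5 genes was thus among the non-stress rats, whereas the widest Pvalb deviations were 0.32 in stressed rat 10 and -0.56 in stressed rat 12. The smaller deviations of the stressed rats did not all keep the pattern. Kcnh8 and Gabrd lay on the same side in stressed rat 7 (-0.04 and -0.07) and in stressed rat 12 (0.12 and 0.05). The correlations below thus rest mostly on the non-stress rats, and correlations within each group alone were not run.

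**Figure D2:**
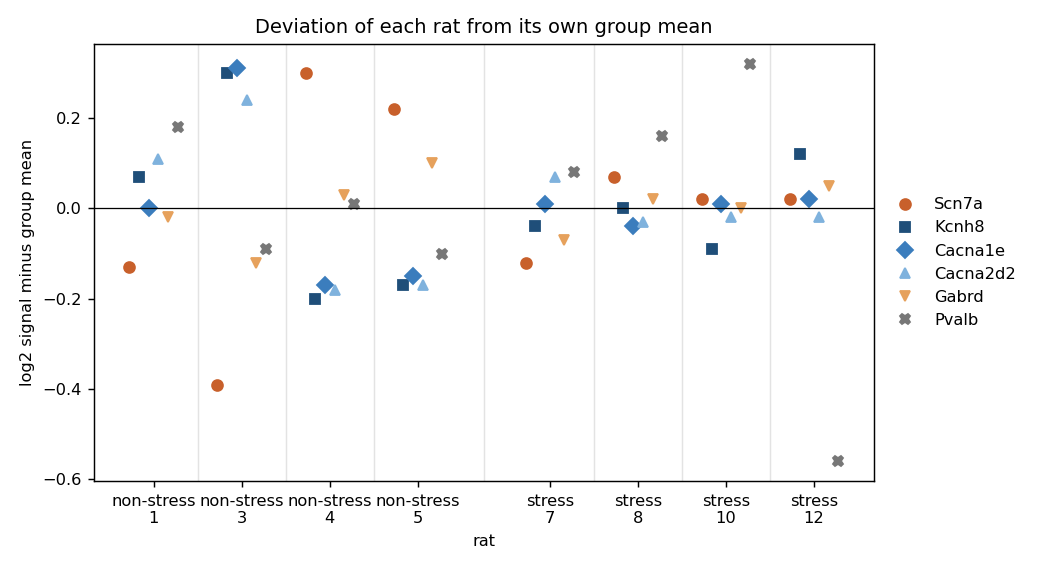
Log2 signal minus the mean of the rat's own group (y axis) for the 6 genes in each of the 8 rats (x axis). In non-stress rat 3 the 3 genes that were lower under stress lie at 0.24 to 0.31 and Scn7a at -0.39, and Pvalb is farthest from 0 in stressed rat 12.

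Scn7a and Cacna2d2, which differed in opposite directions under stress, had the largest absolute r of the 15 pairs in the deposited values (Pearson's r -0.993, exact permutation of rats within groups p = 0.00174, the smallest that 576 orders can give; Spearman's rho -1.0, exact permutation p = 0.00347). Leaving out non-stress rats 3 and 4, the 2 most extreme in Scn7a, r was -0.990 (exact permutation p = 0.0208, the smallest that 6 rats allow). After quantile normalisation it was -0.753 (exact permutation p = 0.0833), behind Scn7a with Cacna1e (-0.930) and with Gabrd (0.918), and after centring on array medians -0.929, behind Scn7a with Gabrd (0.943). Scn7a against Cacna1e gave r -0.941 (exact permutation p = 0.0104; rho -0.786, exact permutation p = 0.0382). Without the same 2 rats r was -0.891 (exact permutation p = 0.208).

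Among the 5 genes without Pvalb, those that went the same way under stress had positive correlations. Cacna1e with Kcnh8 and Cacna1e with Cacna2d2 both gave r 0.916 (exact permutation p = 0.0365 and 0.0243; rho 0.810 and 0.786, exact permutation p = 0.0330 and 0.0382), and without non-stress rats 3 and 4 they gave 0.715 and 0.887 (exact permutation p = 0.396 and 0.292). Scn7a with Gabrd gave r 0.872 (exact permutation p = 0.0191; rho 0.857, exact permutation p = 0.0556; without the same rats r 0.900, exact permutation p = 0.0625). Kcnh8 with Cacna2d2 gave r 0.873 (exact permutation p = 0.0660; rho 0.738, exact permutation p = 0.229; without the same rats r 0.587, exact permutation p = 0.729). After quantile normalisation these 3 pairs of lower genes weakened, to 0.778 for Cacna1e with Kcnh8, 0.633 for Cacna1e with Cacna2d2 and 0.419 for Kcnh8 with Cacna2d2 (exact permutation p = 0.160, 0.167 and 0.410).

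Those of the 5 that went opposite ways had negative correlations. Gabrd against Cacna2d2 gave r -0.882 (exact permutation p = 0.0156; rho -0.857, exact permutation p = 0.0556; without non-stress rats 3 and 4 r -0.890, exact permutation p = 0.0625), and -0.688 after quantile normalisation (exact permutation p = 0.0799). Scn7a against Kcnh8 also gave r -0.882 (exact permutation p = 0.0556; rho -0.738, exact permutation p = 0.229; without those rats r -0.553, exact permutation p = 0.708). Gabrd against Cacna1e gave r -0.804 (exact permutation p = 0.0625; rho -0.571, exact permutation p = 0.205; without those rats r -0.638, exact permutation p = 0.438). Gabrd against Kcnh8 was the weakest of the 10 pairs without Pvalb, at r -0.632 (exact permutation p = 0.217; rho -0.476, exact permutation p = 0.351; without those rats r -0.171, exact permutation p = 0.854).

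Pvalb was only weakly correlated with the other genes. Its 5 correlations ran from -0.304 with Kcnh8 to 0.098 with Cacna2d2, with exact permutation p-values of 0.283 to 0.839 and rho from -0.452 with Gabrd to 0.262 with Cacna2d2 (exact permutation p = 0.278 and 0.559). With 8 rats, correlations of moderate size could not be detected, so these values do not show that Pvalb varied independently.

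**Figure D3:**
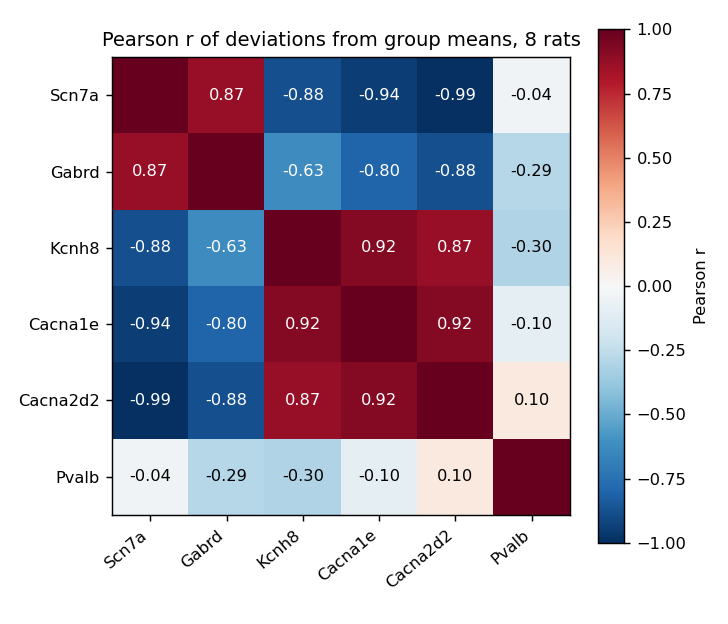
Pearson's r of the deviations from group means over 8 rats for every pair of the 6 genes (colour and printed value). Scn7a and Gabrd form 1 block, the 3 genes that were lower under stress the other, the 2 blocks are negatively correlated, and the Pvalb row lies between -0.30 and 0.10.

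Of the 15 pairs, 6 had an exact p under 0.05 before adjustment, where 7.37% of all 71631 pairs of probe sets did. After Benjamini-Hochberg adjustment over every pair, none of the 15 and 0% of the 71631 passed (adjusted p = 0.584 for Scn7a with Cacna2d2). The smallest exact permutation p that 576 orders can give is 0.00174. Over 71631 pairs a lone pair could therefore not pass, whatever its r, so this adjustment cannot decide about a single pair. The median absolute r was 0.88 in the 10 pairs without Pvalb and 0.10 in the 5 with it, beside 0.37 over all pairs of the table, whose mean r was 0.06. The sign pattern is shared by the table in milder form. The median r was 0.39 between probe sets that were both lower, 0.21 between those both higher, and -0.19 between 1 higher and 1 lower. The genes were proposed with part of this covariation known, so the 6 pairs are not independent evidence of it.

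**Figure D4:**
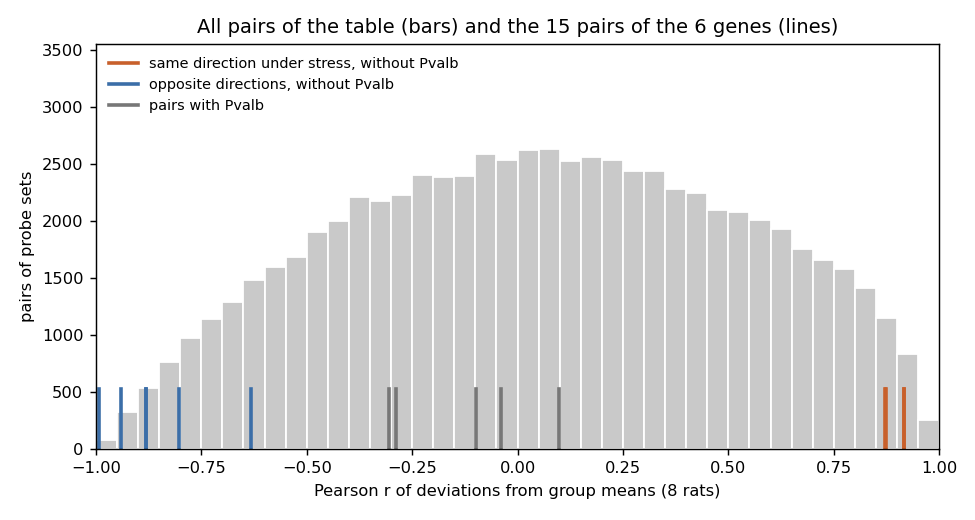
Number of probe set pairs (bars, y axis) by Pearson's r of their deviations from group means (x axis) for all 71631 pairs of the table, with the 15 pairs of the 6 genes drawn as vertical lines of arbitrary height. The lines of pairs without Pvalb lie at -0.63 and below or at 0.87 and above, and those with Pvalb between -0.30 and 0.10.

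Apart from Gabrd and Pvalb, the genes were linked in this way to much of the table. An absolute r over 0.8 was found with 90 of the 378 other probe sets for Scn7a (23.8%), 86 for Cacna1e (22.8%), 83 for Kcnh8 (22.0%) and 83 for Cacna2d2 (22.0%), but with 28 for Gabrd (7.41%) and 5 for Pvalb (1.32%). Over all pairs of the table the share was 7.45%. It was 13.4% for pairs both lower in stress, 4.63% for pairs both higher and 4.9% for 1 higher with 1 lower. Scn7a had a median r of -0.70 with the 210 lower probe sets and 0.25 with the other higher ones, and Cacna2d2 had 0.69 with the other lower and -0.28 with the higher ones.

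Medial habenula markers moved along the same axis, as did many other lower probe sets of the table. All 9 that were matched by symbol, which leaves out Tac3, were lower in stressed rats. Their mean log2 signal ranged from 10.41 to 10.88 in non-stress and from 10.13 to 10.19 in stressed rats. Its deviation was 0.27 in non-stress rat 3, 0.03 in rat 1, -0.19 in rat 4 and -0.11 in rat 5, and within 0.04 of the group mean in every stressed rat. Over the 8 rats this deviation correlated with Cacna1e at r 0.972 (exact permutation p = 0.0174; rho 0.738, exact permutation p = 0.0660) and with Scn7a at -0.933 (exact permutation p = 0.0365; rho -0.810, exact permutation p = 0.156). With Cacna2d2 r was 0.913 (exact permutation p = 0.0417; rho 0.810, exact permutation p = 0.156) and with Kcnh8 0.896 (exact permutation p = 0.0451; rho 0.738, exact permutation p = 0.158). None of these 4 passed after adjustment over the 6 relations (adjusted p = 0.0677 for each). Gabrd gave -0.741 (exact permutation p = 0.128; rho -0.595, exact permutation p = 0.229) and Pvalb 0.0167 (exact permutation p = 0.938; rho 0.286, exact permutation p = 0.486). Without non-stress rats 3 and 4 the r of the 4 was 0.869 for Cacna1e, -0.702 for Scn7a, 0.750 for Cacna2d2 and 0.533 for Kcnh8 (exact permutation p = 0.333 to 0.729). With 6 rats left, 2 of them non-stress, a lost p does not show that a link rests on the rats left out. Single lower probe sets of the table had a median r of 0.64 with Cacna1e, -0.70 with Scn7a, 0.69 with Cacna2d2 and 0.68 with Kcnh8. A mean over 9 markers is a different measure, and means of other lower probe sets were not compared. Whether the correlations are particular to these markers was thus not tested. The part of medial habenula cells in the values of the 6 genes was not tested either.

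Other marker lists gave few members. The 3 hippocampal and dentate markers of 12 in the table, of which Slc17a7 is also on the medial habenula list, were lower, with mean signals of 10.70 to 11.13 in non-stress and 10.46 to 10.55 in stressed rats. Of 12 lateral habenula markers, Pvalb and Vgf were higher and Gpr151, which is also on the medial list, was lower. Microglia had 2 of 10 markers in the table and endothelial cells 3 of 10, with both directions in each, and meninges had 1 of 10, which was lower. The lists for thalamic neurons, oligodendrocytes and their precursors, astrocytes, mural cells, choroid plexus, ependyma, pineal gland and blood had 0 members in the table.

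For each gene, the 5 named probe sets most like it were taken by the highest r of deviations over the 8 rats, among 277 candidates that leave out the 6 genes themselves. Scn7a and Gabrd, at r 0.872 with each other, would otherwise rank among each other's 5. For Scn7a these were the prostaglandin E receptor Ptger3 (r 0.94), Spata2L (0.92), the deubiquitinase Usp2 (0.87), the potassium channel subunit Kcnj9 (0.87) and the adenylyl cyclase Adcy1 (0.87), all of them higher in stressed rats. Kcnh8 was most like the chloride channel Ano1 (0.98), followed by the transcription factors Pbx3 (0.96) and Neurod1 (0.95), the orphan receptor Gpr149 (0.94) and the calcium release channel Ryr2 (0.94). Cacna1e was closest to Elfn1, a postsynaptic organiser (0.98), then Syt10, Sytl2, Ryr2 and Pbx3 (0.96 each). Cacna2d2 was closest to the neuronal pentraxin Nptx1 (0.99), the transcription factor Ebf1 (0.98), the nicotinic subunit Chrnb4 (0.97), the semaphorin receptor Nrp2 (0.96) and the somatostatin receptor Sstr4 (0.96). The genes listed for Kcnh8, Cacna1e and Cacna2d2 were all lower in stressed rats.

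The Gabrd set was Sec14l4 (0.93), Spata2L (0.90), Depp1 (0.87), the glucocorticoid-induced transcription factor Klf9 (0.87) and Cd209a (0.84), all higher in stressed rats. The matches of Pvalb were weaker. They were Mix23 (0.81) and Or1j1 (0.75), then the protease Adamts1 (0.69), the neuropeptide precursor Nts (0.68) and the microglial receptor Gpr34 (0.66). Or1j1 and Nts were higher and Mix23, Adamts1 and Gpr34 lower in stressed rats.

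The wider families were counted to show what else of this kind the table holds. The 13 symbol families of channels, GABA receptors and calcium-handling proteins hold 347 protein-coding genes in RefSeq, and 14 of these were in the table, 6 higher and 8 lower. Their median difference was -0.34, beside -0.28 for the 379 probe sets, and 11 of the 14 had groups without overlap, close to the 83.4% of the table. How many of the 347 the array measured is not known here, so 14 is no rate. Potassium channel genes had 4 of 95 in the table, 3 of them higher, calcium channel genes 2 of 26, both lower, and EF-hand buffers and sensors 3 of 51, 1 of them higher. Sodium channel subunits had 1 of 15, GABA-A subunits 1 of 19, chloride channels 1 of 36, calcium pumps and release channels 1 of 24, and GABA synthesis and transport 1 of 7. Genes were matched by symbol, so relatives with other symbols were not counted. Found after the values were seen were the chloride channel Cftr (-0.28), the anion channel subunit Lrrc8e (0.30) and Lrrc55, an auxiliary subunit of calcium-activated potassium channels (-0.48). These are not all. Channel genes outside the 13 families, such as the nicotinic subunits Chrna3 (-0.35) and Chrnb4 (-0.62) and the proton channel Otop1 (0.36), are also in the table. The HCN, glycine receptor, ionotropic glutamate receptor, TRP and cation-chloride cotransporter families had 0.

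Apart from the 6 genes the families gave 8 others, 3 higher and 5 lower. The higher ones were all potassium channel genes. Kcnj9, a G-protein-gated inward rectifier subunit, was at 9.02, 9.08, 9.37 and 9.34 in non-stress rats 1, 3, 4 and 5 and at 9.48, 9.70, 9.63 and 9.59 in stressed rats 7, 8, 10 and 12 (0.40 ± 0.09). Kcnf1, a modifier subunit that is silent on its own, differed by 0.34 ± 0.09, and Kcnk4, a leak channel, by 0.26 ± 0.09 with overlapping groups. Kcnh8 was the only lower gene with a potassium channel (Kcn) symbol in the table.

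Among the lower genes, the calcium-activated chloride channel gene Ano1 was at 10.19, 10.32, 9.88 and 9.98 in non-stress rats 1, 3, 4 and 5 and at 9.61, 9.60, 9.58 and 9.71 in stressed rats 7, 8, 10 and 12 (-0.47 ± 0.10). The groups did not overlap. Scgn, the calcium sensor secretagogin, differed by -0.44 ± 0.12, the ryanodine receptor gene Ryr2 by -0.41 ± 0.09, and Necab2, a neuronal EF-hand gene, by -0.36 ± 0.09. Both EF-hand genes besides Pvalb were thus lower, while Pvalb was higher. The GABA transporter gene Slc6a13, also a meningeal marker, differed by -0.31 ± 0.10 with overlapping groups.

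Several of these genes shared the axis of the 5 channel genes. Ryr2 had r -0.94 with Scn7a, 0.96 with Cacna1e and 0.91 with Cacna2d2, Ano1 had -0.91, 0.90 and 0.90, and Scgn had -0.84, 0.71 and 0.87. Necab2 had -0.81 with Scn7a, 0.89 with Cacna1e and 0.76 with Cacna2d2. On the other side, Kcnj9 had 0.87 with Scn7a, -0.69 with Cacna1e and -0.89 with Cacna2d2, and Kcnk4 had 0.84, -0.64 and -0.85. With Kcnh8 both had -0.70, and Ano1 had -0.62 with Gabrd. Kcnf1 was more weakly linked to Scn7a and Cacna2d2, at 0.50 and -0.50, and had -0.61 with Cacna1e. The links of Slc6a13 were also weaker, at 0.39 with Scn7a and -0.41 with Cacna2d2. With Pvalb, the 8 genes had r between -0.29 and 0.32. These correlations over 8 rats are descriptions. The lower probe sets of the table had a median r of -0.70 with Scn7a, 0.64 with Cacna1e and 0.69 with Cacna2d2. The higher ones had 0.25, -0.17 and -0.28, so the axis is not particular to genes of these families.

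**Figure D5:**
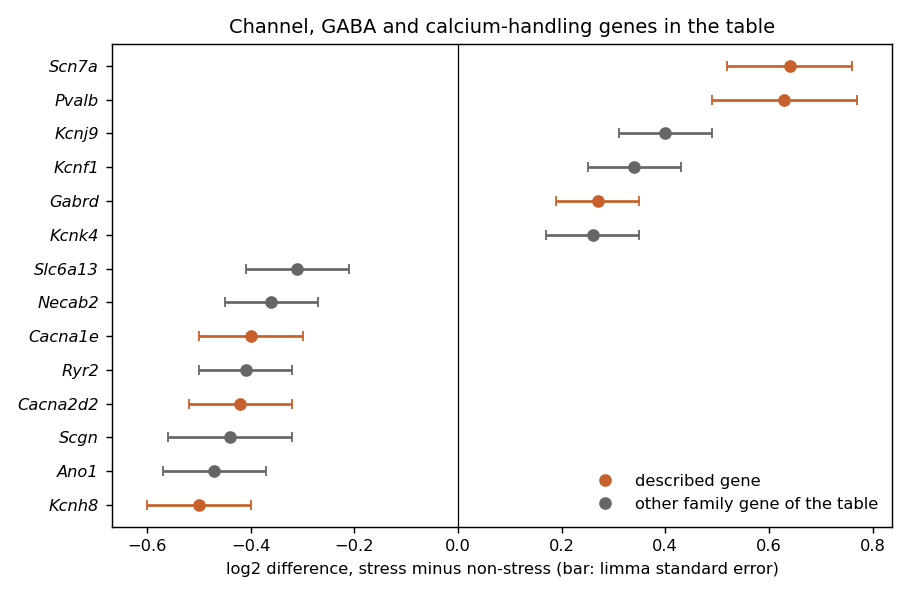
Difference between the group means on the log2 scale, stress minus non-stress (x axis), with limma's standard error as the bar. Shown are the 14 genes of the table that belong to the families counted by symbol. The 6 described genes run from -0.50 for Kcnh8 to 0.64 for Scn7a, and the 8 others lie between -0.47 and 0.40.

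The start regions of the genes were also read for short motifs, as a description. All 6 have an entry in the RefSeq promoter table (build GRCr8), and the 250 bases before the start were searched on both strands. Sequence is shown for Kcnh8 and Gabrd, 1 gene that was lower and 1 that was higher, since theirs are the 2 windows that lie wholly outside the annotated gene span. Capitals mark matches, positions count from 1 at the 5′ end of the printed strand, and a match is a description of letters only.
Kcnh8, chr9:5742433-5742682, plus strand: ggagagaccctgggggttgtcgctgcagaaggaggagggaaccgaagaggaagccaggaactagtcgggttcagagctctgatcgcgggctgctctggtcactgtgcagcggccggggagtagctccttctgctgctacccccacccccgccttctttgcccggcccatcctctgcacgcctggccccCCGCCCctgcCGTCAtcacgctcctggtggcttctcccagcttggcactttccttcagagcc
Gabrd, chr5:171252710-171252959, minus strand: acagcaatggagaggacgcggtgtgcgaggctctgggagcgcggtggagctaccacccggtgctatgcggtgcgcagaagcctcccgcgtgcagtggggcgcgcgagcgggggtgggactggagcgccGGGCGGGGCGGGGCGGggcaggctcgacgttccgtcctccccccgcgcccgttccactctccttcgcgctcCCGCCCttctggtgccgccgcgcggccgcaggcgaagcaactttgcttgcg

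The Kcnh8 window holds 1 GC box (GGGCGG or CCGCCC, bases 189 to 194) and 1 half-site of the cyclic AMP response element (TGACG or CGTCA, bases 199 to 203). The Gabrd window holds 4 GC boxes, of which the 3 from base 129 to base 144 each overlap the next by 1 base, and 35 CpG dinucleotides against 13 for Kcnh8 and a median of 5 over 33469 promoter windows. Across those windows 30.5% hold a GC box and 18.2% the cyclic AMP half-site. The glucocorticoid receptor half-site (AGAACA or TGTTCT), present in 17.5% of all windows, was found in 1 of the 6 genes, at bases 210 to 215 of the Pvalb window. The E-box (CANNTG, 65.5% of windows) was found in Scn7a and Pvalb, and the TATA box (TATAAA or TTTATA, 12.9%) in 0 of the 6. The Scn7a and Cacna2d2 windows shared only the GC box among the 5 motifs searched, and the Cacna1e window held 0 of them.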

How the data were processed

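Habenula RNA of 8 rats was measured on 1 array each, in 2 groups of 4 taken from the sample titles. The deposited values are log2 signals per probe set, with background correction, summarisation and scaling not given in the sources used here. Per probe set, the authors' deposited p-values are unadjusted and match 2-sided unequal-variance p-values recomputed here (largest gap 1.64e-15). Both deposited tables agree on all 379 probe sets. Symbols came from the platform annotation, updated by gene ID through RefSeq (283 with 1 symbol, all matched, 5 with several, 91 with none).

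Differences and standard errors came from limma 3.58.1 in R 4.3.3, fitted over all 379 probe sets (group as the only term). The code was tested on simulated data with equal SD in both groups and no selection of rows. That test does not check the standard errors for a table selected on the contrast. Residuals from group means were correlated in Python 3.11.15 with numpy 2.4.6. The 2-sided p-values are exact over the 576 orders of rats within groups. They measure how unusual the match of 2 sets of deviations across these rats is among those orders. The number of arrays limits precision, and no batch is named in the labels. Genes named are the 6 genes, all genes of the 13 families in the table, the 5 most like each of the 6, and marker examples. The genes and lists were chosen with earlier results of these data known.

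Alternatives were quantile normalisation over the table, centring on array medians, the other table, group medians, Spearman's rho, leaving out rats, and probe sets with several symbols. The adjustment over all pairs and the correlation with medial habenula markers were chosen after seeing the data.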

Additional observations from a re-analysis of the deposited data

Results flagged for a closer look

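In 28 groups of 4 rats (the 14 family genes in both groups), 2 held a rat apart from the other 3 by Dixon's criterion, where chance gives about 1 in 20. Cacna2d2 was at 10.29 in stressed rat 7, against 10.18 to 10.20 in the other stressed rats. Necab2 was at 11.72 in non-stress rat 3, against 11.42 to 11.44 in the other non-stress rats.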

How the results depend on the processing

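The differences of the 6 genes kept their direction under the 12 alternatives run for each, which was largely fixed in advance. In the 5 genes whose groups were apart, leaving out a rat or using group medians could not reverse it. The other deposited table holds the same values, and quantile normalisation and centring each changed the direction in 0 of the 379 probe sets. The range over leaving out each rat was 0.51 to 0.74 for Scn7a, -0.57 to -0.40 for Kcnh8, -0.45 to -0.29 for Cacna1e, -0.48 to -0.34 for Cacna2d2, 0.23 to 0.31 for Gabrd and 0.52 to 0.82 for Pvalb. Quantile normalisation, run on the chosen probe sets alone, moved the table's median difference by 0.10 and gave -0.16 for Cacna1e and -0.29 for Cacna2d2. The cause was not tested. The counts of 6 higher and 8 lower family genes were the same with that scaling and with probe sets of several symbols.

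Among the 15 pairs alone, 1 passed an adjusted p of 0.05 (Scn7a with Cacna2d2) and 6 had an exact p under 0.05. After quantile normalisation 0 passed and 3 had an exact p under 0.05, after centring on array medians 0 and 6, with Spearman's rho 0 and 4, without the 2 farthest rats 0 and 1, and 0 passed over all pairs of the table. Over all pairs of the table a lone pair could not pass, whatever its r. The r of Scn7a with Cacna2d2 was -0.753 after quantile normalisation and -0.929 after centring. Leaving out each rat gave 0 to 3 pairs. It was 3 without stressed rat 12 and 0 without each of non-stress rats 1, 3, 4 and 5 and stressed rats 7, 8 and 10. With 7 rats the smallest exact p is 0.00694, which a lone pair cannot carry past adjustment (0.104), so the zeros say nothing about stability, and without 2 rats of a group it is 0.0208. No paired analysis was possible because the groups share no rat numbers.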
